A study of Mus musculus with 9 samples.

Results

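The collagen chain genes were taken as the rows of a table of retinal gene expression whose mouse symbol has the form Col, a number, a and a number, such as Col4a1. The rule found 44 genes among 35397. Of these, 27 reached a mean of 1 FPKM (fragments scaled to gene length and library depth) over the 9 libraries and were tested, together with the other genes that did so, 14588 in all. The retinas came from wild-type mice (5 libraries, wild type 1 to 5) and from db/db mice (4 libraries, db/db 1, 3, 4 and 5), a strain that is homozygous for a leptin receptor mutation and becomes obese and diabetic. The sample titles give the genotype, with no age, sex, litter or batch, and nothing states whether 1 library stands for 1 animal. The p-values below therefore rest on library-to-library spread, which may be technical. The question was which genes differ in the diabetic retina.

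Collagens are secreted or membrane-bound proteins that wind into triple helices, which needs a glycine at the start of every residue triplet. In the eye, type IV collagen forms the sheet of the basement membranes around vessels and at the inner surface of the retina. Types II, IX and XI make up the fibrils of the vitreous, and mutations in their genes cause Stickler syndrome. FACIT collagens (fibril-associated collagens with interrupted triple helices, such as types IX, XII, XIV, XIX and XX) sit on fibrils. Transmembrane collagens (types XIII, XVII, XXIII and XXV) are held in the cell membrane, and multiplexins (types XV and XVIII) lie in basement membranes.

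The repeat can be read in the coding sequences, which are shown here for the chains that the results turn on and for Col2a1, the model of an unbroken helix. Each line gives the first 20 triplets of the longest unbroken run, from the transcript of GENCODE M21 (mm10) with the longest complete coding sequence, 5′ to 3′ on the gene's strand. Capitals mark the glycine codons, all of which begin with GG.
Col2a1 (chromosome 15): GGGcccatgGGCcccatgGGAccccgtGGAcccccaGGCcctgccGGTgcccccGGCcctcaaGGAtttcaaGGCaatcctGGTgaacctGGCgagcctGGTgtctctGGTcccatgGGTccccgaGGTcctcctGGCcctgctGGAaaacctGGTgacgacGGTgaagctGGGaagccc
Col9a1 (chromosome 1, codons 418 to 477): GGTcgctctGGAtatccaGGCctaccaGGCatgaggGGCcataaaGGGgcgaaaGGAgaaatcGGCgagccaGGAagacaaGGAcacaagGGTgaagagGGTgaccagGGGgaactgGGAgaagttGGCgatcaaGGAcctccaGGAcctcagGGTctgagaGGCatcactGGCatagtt
Col19a1 (chromosome 1, codons 833 to 892): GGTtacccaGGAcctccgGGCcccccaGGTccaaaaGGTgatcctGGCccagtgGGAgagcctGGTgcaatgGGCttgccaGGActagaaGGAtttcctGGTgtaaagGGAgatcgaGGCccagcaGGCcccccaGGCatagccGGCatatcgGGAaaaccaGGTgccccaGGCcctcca
Col20a1 (chromosome 2, codons 1168 to 1227): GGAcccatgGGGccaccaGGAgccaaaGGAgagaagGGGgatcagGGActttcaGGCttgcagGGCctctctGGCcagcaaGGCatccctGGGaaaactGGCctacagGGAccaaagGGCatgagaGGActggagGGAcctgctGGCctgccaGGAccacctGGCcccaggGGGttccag
Col25a1 (chromosome 3, codons 189 to 248): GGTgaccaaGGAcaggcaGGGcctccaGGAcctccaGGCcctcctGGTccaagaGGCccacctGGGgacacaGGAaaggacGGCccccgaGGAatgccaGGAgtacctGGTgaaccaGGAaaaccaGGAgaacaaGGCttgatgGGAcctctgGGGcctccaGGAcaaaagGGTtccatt
Col4a3 (chromosome 1, codons 43 to 102): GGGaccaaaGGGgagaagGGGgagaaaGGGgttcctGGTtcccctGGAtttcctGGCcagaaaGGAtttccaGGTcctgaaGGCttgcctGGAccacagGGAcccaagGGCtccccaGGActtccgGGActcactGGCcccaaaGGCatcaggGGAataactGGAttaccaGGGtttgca
Col17a1 (chromosome 19, codons 651 to 710): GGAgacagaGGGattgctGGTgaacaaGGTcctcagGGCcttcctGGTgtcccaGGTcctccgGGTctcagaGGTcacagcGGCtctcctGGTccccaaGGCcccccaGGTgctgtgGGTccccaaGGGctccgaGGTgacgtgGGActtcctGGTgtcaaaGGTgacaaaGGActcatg
The runs were picked by these codons, so each triplet begins with a G, while the other codons vary from chain to chain.

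The chains differed in how long the repeat goes on. In the 11 fibrillar genes the longest run held 216 to 344 triplets, and Col2a1 had 339. In the 6 type IV genes the repeat was cut into 22 to 27 runs of at least 6 triplets, none longer than 66, although these added up to 421 to 444 triplets. Col20a1 coded for the shortest helix of the 9 FACIT genes, with 50 triplets in 2 runs, or 11.0% of its 1362 codons. Col9a1 had 190 in 5 runs, Col19a1 223 in 11, Col25a1 158 in 6 and Col17a1 132 in 7.

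**Figure D1:**
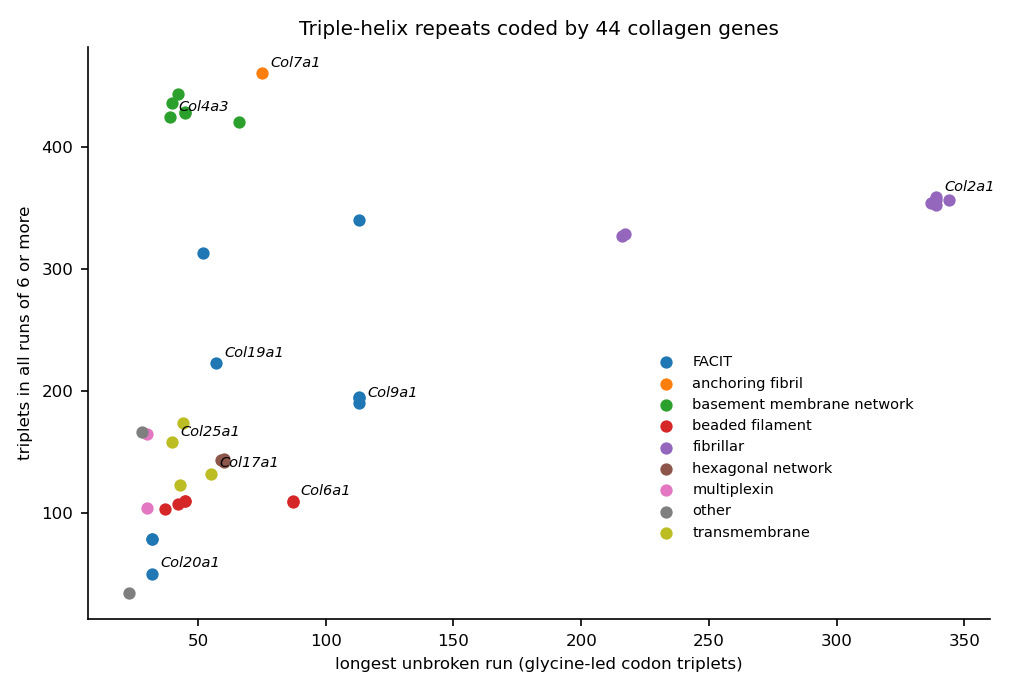
Length of the longest unbroken run of glycine-led codon triplets (x axis) against the triplets in all runs of 6 or more (y axis) for the 44 collagen genes, 1 point each, coloured by chain class. Fibrillar chains lie at the right (longest run 216 to 344), type IV chains at the upper left (421 to 444 triplets in 22 to 27 runs), and Col20a1 near the bottom with 50 triplets.

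Collagen transcripts summed to 165 to 196 FPKM in wild type and 175 to 196 FPKM in db/db, so the totals overlapped. All genes summed to 311179 FPKM in db/db 1, against 252832 to 268139 FPKM in the other libraries. The collagen share of that sum was 0.0562% in db/db 1 and 0.0725% to 0.0768% in db/db 3, 4 and 5. In wild type it was 0.0626% to 0.0735%. Of the summed mean collagen level, 51.7% came from 5 genes: Col6a1, Col23a1, Col9a1, Col2a1 and Col4a2. FPKM is a level per length, and the length that fitted these values was that of all annotated exons of a gene. That length can exceed the expressed transcript, so levels are compared between genes only roughly. The order began with Col6a1 (mean over the 9 libraries 37.0 FPKM), Col23a1 (22.8 FPKM) and Col9a1 (15.4 FPKM), whose ranges over the libraries did not touch. The next chains had overlapping ranges: Col2a1 at 9.85 FPKM, Col4a2 at 9.35 FPKM, Col20a1 at 9.07 FPKM, Col11a2 at 8.26 FPKM and Col4a1 at 8.10 FPKM. Col1a1, Col1a2 and Col3a1, the main chains of connective tissue fibrils, were far lower, at means of 0.705, 0.685 and 0.0802 FPKM.

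**Figure D2:**
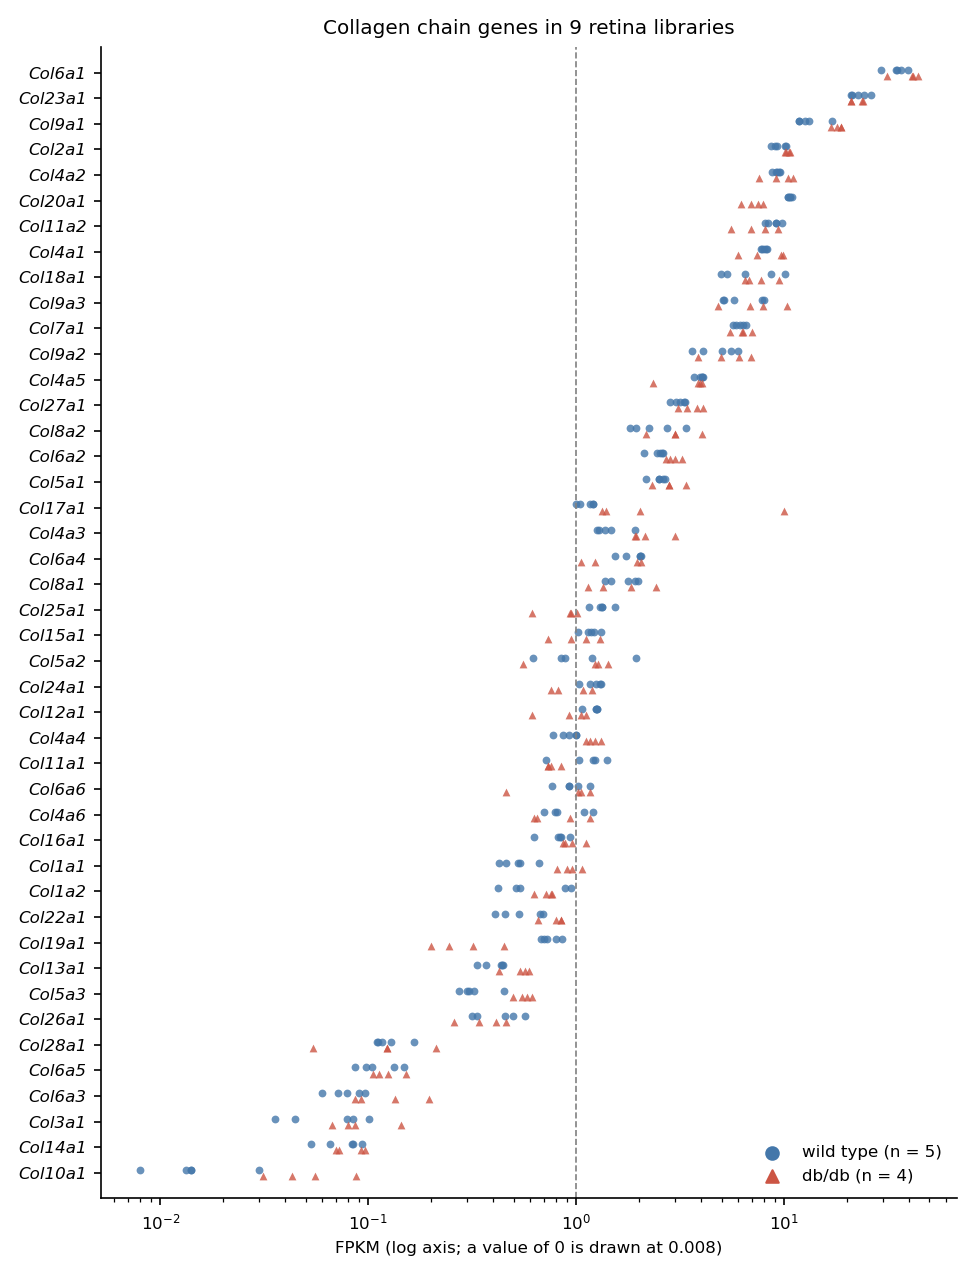
FPKM on a log axis (x) of the 44 collagen genes (y, ordered by mean), with 1 circle per wild-type library (n = 5) and 1 triangle per db/db library (n = 4); the dashed line marks 1 FPKM. Levels run from 37.0 FPKM for Col6a1 to 0.0320 FPKM for Col10a1, and most genes show overlapping groups.

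Of the 27 tested collagen genes 1 was lower in db/db (3.70%) and 0 were higher, at an adjusted p under 0.05 in limma over all 14588 genes, where the background was 0.267% lower and 0.233% higher. Of all calls 46.6% were higher, against 58.3% with libraries scaled to equal sums and 83.3% with the correction for GC content. Limma-voom on reads recovered from the FPKM values called 1 collagen gene higher and 2 lower of 43 tested (background 0.159% and 0.208%). Leaving out db/db 1 gave 2 higher and 1 lower in limma (background 4.72% and 5.84%), and 8 higher and 3 lower in limma-voom (background 3.87% and 4.7%). At an unadjusted p under 0.05, 4 tested collagen genes were higher and 3 lower, or 7 of 27, against 19.3% of all tested genes. The values of the groups did not overlap in 3 tested collagen genes with db/db higher (11.1%, background 5.2%) and in 2 with db/db lower (7.41%, background 6.38%). Over all 44 members this held for 6 higher and 3 lower (background over all genes 2.69% and 3.43%). That background takes in all 35397 genes, of which 20151 entered limma-voom at a mean of at least 10 recovered reads. Since 43 of the 44 members did so, it is not a like background. The median log2 change of the 27 was 0.03, and that of all tested genes 0.0035. A single gene makes up 3.70% of 27, so each of these shares rests on a few chains, and the share that was lower without overlap was near the background. In whole retina, fewer cells of a type and less RNA per cell cannot be told apart.

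**Figure D3:**
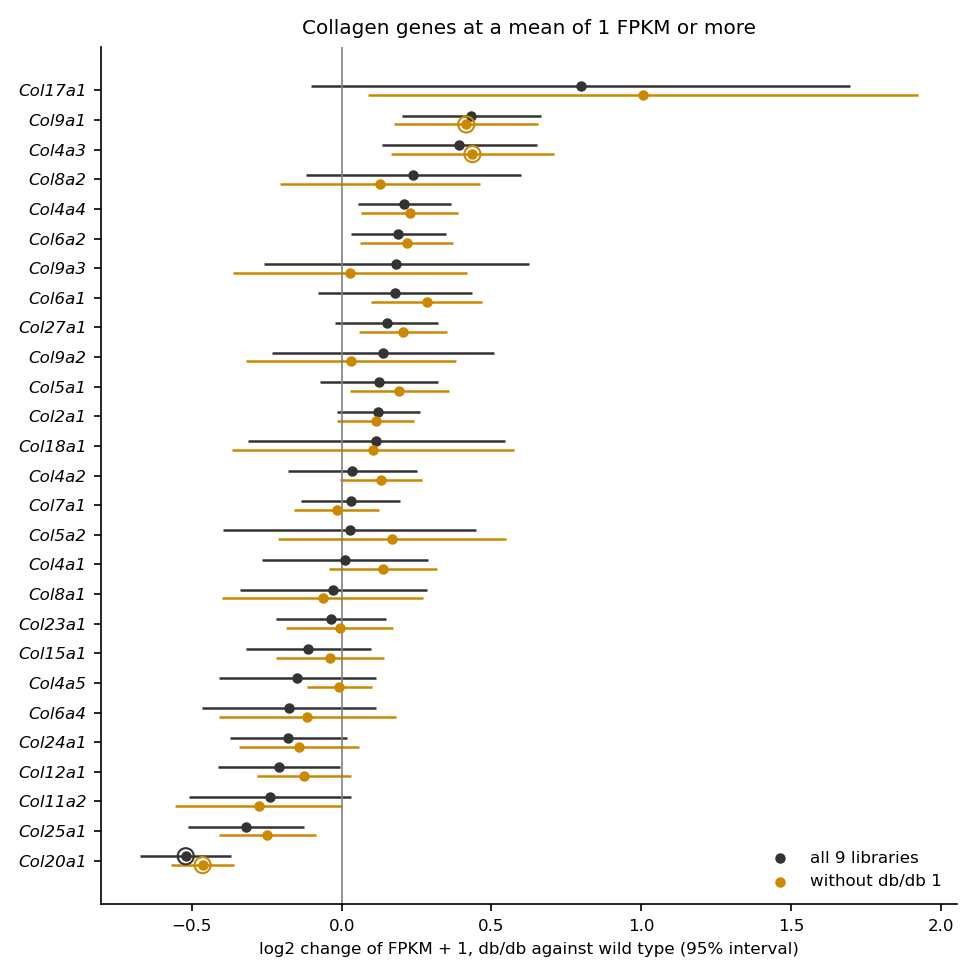
Log2 change of FPKM + 1 in db/db against wild type (x axis) with its 95% interval for the 27 collagen genes at a mean of 1 FPKM or more, with all 9 libraries (black) and without db/db 1 (orange); a ring marks an adjusted p under 0.05. Col20a1 is ringed in both fits (-0.52 and -0.46), and Col9a1 and Col4a3 only without db/db 1 (0.42 and 0.44).

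Col20a1, the FACIT chain with the shortest helix, fell (ENSMUSG00000016356, chromosome 2, 180986535 to 181018363, plus strand, mm10). It stood at 10.5, 10.7, 10.6, 10.9 and 10.4 FPKM in wild type 1 to 5, and 6.20, 6.94, 7.90 and 7.45 FPKM in db/db 1, 3, 4 and 5. The wild-type libraries lay close together, and each db/db library was below the lowest of them. The means were 10.6 ± 0.196 FPKM in wild type (SD, n = 5) against 7.12 ± 0.731 FPKM in db/db (SD, n = 4), a ratio of 0.671. The log2 change was -0.52 (SE 0.07, limma adjusted p = 0.0345); the fold's 95% interval was 0.627 to 0.775. Without db/db 1 the change was -0.46 (adjusted p = 0.00538), and the correction for GC content gave -0.54 (adjusted p = 0.00620) in the same 8 libraries. In 24 alternatives the log2 change lay between -0.64 and -0.46, while the adjusted p ran from 0.00162 to 0.428 and missed the threshold in 11. These were the fits without each of wild type 1 to 5 (0.107, 0.122, 0.140, 0.0708 and 0.138), without db/db 3 (0.0678) or db/db 5 (0.0821), with no filter (0.0577), equal sums (0.0622), the GC correction on 9 libraries (0.0635) and the replicate block (0.428). Another gene, BX649560.1, shares 79 exon bases with Col20a1 on its strand, so reads may be shared. It had 5.76 ± 0.539 FPKM in wild type (SD, n = 5) against 5.36 ± 1.33 FPKM in db/db (SD, n = 4), with overlapping groups (log2 change -0.11, limma adjusted p = 0.686).

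Col19a1, the chain of FACIT collagen XIX, which has been studied at synapses, lay below the filter in FPKM but had 64 to 252 recovered reads per library. Its values were 0.725, 0.851, 0.796, 0.680 and 0.697 FPKM in wild type 1 to 5, and 0.201, 0.245, 0.317 and 0.452 FPKM in db/db 1, 3, 4 and 5. The groups did not overlap, and the ratio of means was 0.405, the lowest of the 44. In limma without a filter the log2 change of FPKM + 1 was -0.43 (adjusted p = 0.0767; 0.0435 without db/db 1), a scale that shrinks the change of a low gene. In limma-voom on recovered reads it was -1.38 (adjusted p = 0.0394; 0.00512 without db/db 1), where 0.208% of all genes were called lower in the first fit and 4.7% in the second. For limma without a filter and db/db 1 the share was 0.537% lower and 0.692% higher. The gene lies on the minus strand of chromosome 1 (24261890 to 24587472), tail to tail with Col9a1, whose end is 9205 bases away.

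Col9a1 encodes a chain of collagen IX on vitreous fibrils (ENSMUSG00000026147, chromosome 1, 24177610 to 24252684). Its values were 13.1, 12.6, 11.8, 17.03 and 11.7 FPKM in wild type 1 to 5, and 18.8, 18.8, 16.8 and 18.02 FPKM in db/db 1, 3, 4 and 5. The db/db libraries were high throughout, and only wild type 4 reached into their range. The means were 13.3 ± 2.18 FPKM in wild type (SD, n = 5) against 18.1 ± 0.950 FPKM in db/db (SD, n = 4), and the log2 change was 0.43 (SE 0.10, limma adjusted p = 0.0758), which did not pass. It passed without db/db 1 (0.42, adjusted p = 0.0404), where 4.72% of all genes were called higher, and had an adjusted p of 0.0616 without wild type 4. With the GC correction in the 8 libraries without db/db 1 the adjusted p was 0.0588. RefSeq gives the gene a second start inside it, and the gene totals do not separate the forms.

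The partner chains of collagen IX did not pass. Col9a2 had 4.85 ± 0.987 FPKM in wild type (SD, n = 5) against 5.47 ± 1.35 FPKM in db/db (SD, n = 4), a log2 change of 0.14 (adjusted p = 0.661; 0.031 without db/db 1 and 0.27 without db/db 4). Col9a3 had 6.35 ± 1.42 FPKM in wild type (SD, n = 5) against 7.46 ± 2.31 FPKM in db/db (SD, n = 4), with 0.18 (adjusted p = 0.629; 0.028 without db/db 1 and 0.35 without db/db 4). Whether they differ in change from Col9a1 (0.42 and 0.47 in the same fits) was not tested. These 2 partners moved together from library to library: the ratio of Col9a3 to Col9a2 stayed between 1.14 and 1.49, while that of Col9a1 to Col9a2 ran from 2.33 to 4.34. Among the remaining FACIT genes, Col12a1 had 1.22 ± 0.0847 FPKM in wild type (SD, n = 5) against 0.927 ± 0.225 FPKM in db/db (SD, n = 4), a log2 change of -0.21 (limma adjusted p = 0.249) and -0.13 without db/db 1. Col16a1 (0.624 to 1.11 FPKM over the 9 libraries), Col22a1 (0.408 to 0.850 FPKM) and Col14a1 (0.0530 to 0.0961 FPKM) lay below the filter, with overlapping groups.

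**Figure D4:**
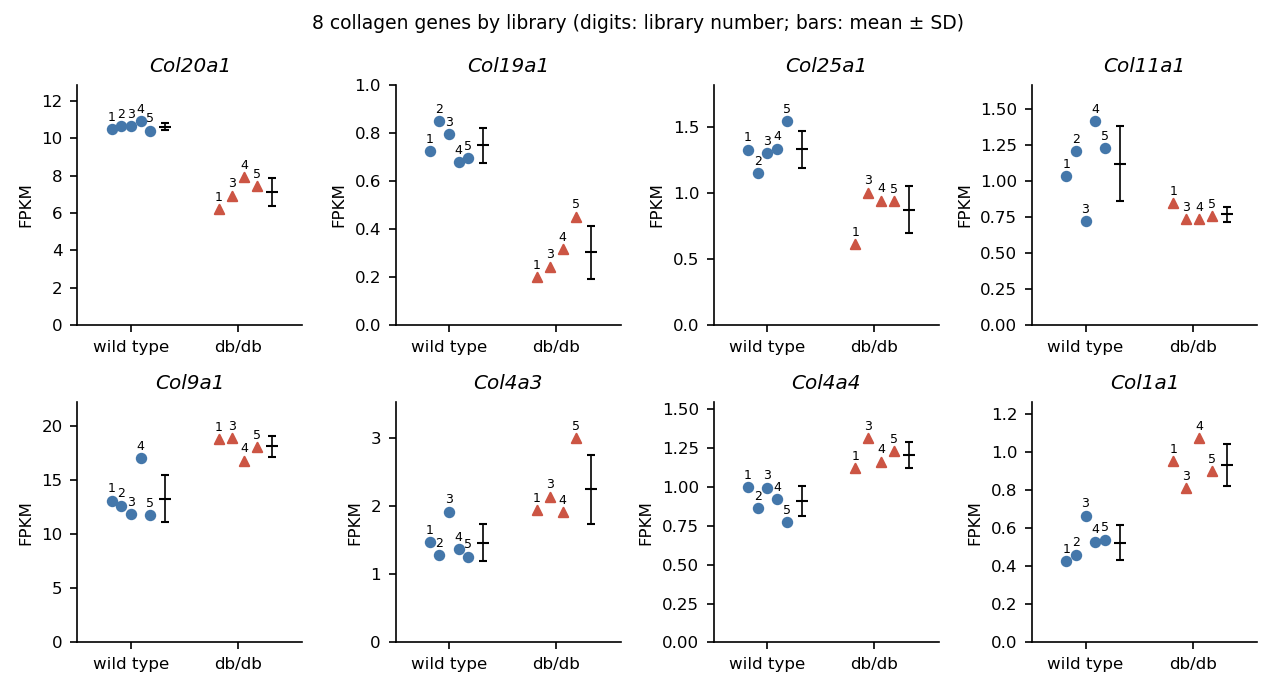
FPKM of 8 collagen genes in wild type (circles, n = 5) and db/db (triangles, n = 4), each point carrying its library's number, with the mean and SD at the side of each group. The groups are apart for Col20a1, Col19a1 and Col25a1 (db/db lower) and for Col4a4 and Col1a1 (db/db higher), and overlap for Col11a1, Col9a1 and Col4a3.

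Of the transmembrane collagens, Col23a1 was the most abundant and did not differ beyond the spread, at 23.03 ± 2.23 FPKM in wild type (SD, n = 5) against 22.4 ± 1.598 FPKM in db/db (SD, n = 4), and the fold's 95% interval was 0.859 to 1.11. Col25a1, whose protein was first found in amyloid plaques and is needed for motor nerves to enter muscle, was lower in each db/db library. It stood at 1.33, 1.15, 1.30, 1.34 and 1.54 FPKM in wild type 1 to 5, and 0.612, 1.004, 0.942 and 0.937 FPKM in db/db 1, 3, 4 and 5. The log2 change was -0.32 (SE 0.09, limma adjusted p = 0.0994), which did not pass, with a ratio of means of 0.656. Without db/db 1 it was -0.25 (adjusted p = 0.0566), and limma-voom without db/db 1 called it lower (-0.47, adjusted p = 0.0168), as it did 4.7% of all genes. Col13a1 lay below the filter at 0.332 to 0.593 FPKM.

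Col17a1, a collagen of the hemidesmosomes that anchor surface epithelia, was set apart by 1 library. It had 1.21, 1.16, 1.1999, 0.9996 and 1.05 FPKM in wild type 1 to 5, and 1.39, 2.02, 9.95 and 1.34 FPKM in db/db 1, 3, 4 and 5. All db/db libraries were above wild type, with db/db 4 far above the rest. The ratio of means was 3.27 with all libraries and 1.41 without db/db 4, and the log2 change was 0.80 (limma adjusted p = 0.308) and 0.27 without db/db 4. Corneal genes moved with it. Of 11 measured markers of the ciliary body and cornea, 8 were highest in db/db 4, and 7 reached a mean of 1 FPKM (6 without db/db 4). Their sum was 7.86 to 18.1 FPKM in wild type, but 14.9, 33.0, 313 and 11.96 FPKM in db/db 1, 3, 4 and 5. The keratin gene Krt5 stood at 121 FPKM in db/db 4 and 9.71 FPKM in db/db 3, against 0.429 to 4.004 FPKM in wild type. The corneal keratin gene Krt12 stood at 30.8 and 3.13 FPKM in these libraries, against 0.154 to 1.31 FPKM in wild type. Of the rest of the list, Zic1 (1.19 FPKM in db/db 4, 1.08 to 1.84 FPKM in wild type), Wfdc1 (3.98 FPKM, 3.10 to 5.66 FPKM in wild type) and Opcml (0.940 FPKM, 1.03 to 1.34 FPKM in wild type) were not raised in db/db 4. Otx1 was highest in db/db 4, at 0.636 FPKM against 0.180 to 0.610 FPKM in wild type. No marker of this list was at 0 in all libraries, and the list's part in the level of Col17a1 was not tested.

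**Figure D5:**
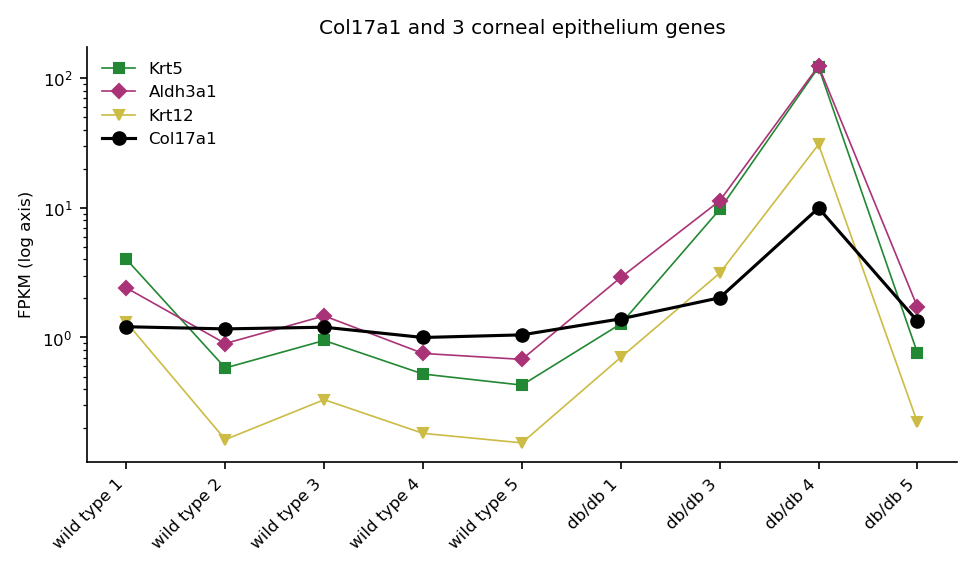
FPKM on a log axis of Col17a1 (black circles) and of the corneal epithelium genes Krt5, Aldh3a1 and Krt12 in each of the 9 libraries (x axis). All 4 peak in db/db 4, where Col17a1 reaches 9.95 FPKM and Krt5 121 FPKM, and have their second highest value in db/db 3.

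The type IV genes lie in head-to-head pairs. The chain genes Col4a1 and Col4a2, whose products form the common basement membrane trimer, start 22 bases into each other on chromosome 8. Col4a1 had 8.16, 8.27, 7.78, 7.99 and 7.83 FPKM in wild type 1 to 5, and 5.98, 7.40, 9.85 and 9.66 FPKM in db/db 1, 3, 4 and 5. Thus db/db 1 and 3 were below all wild-type libraries and db/db 4 and 5 above them, and the log2 change was 0.01 (limma adjusted p = 0.968; 0.14 and 0.284 without db/db 1, -0.11 with the GC correction, -0.01 with equal sums). Col4a2 ranked the db/db libraries in the same order, and its log2 change was 0.03 (adjusted p = 0.860; -0.11 with the GC correction). Endothelial markers, 10 of 12 above 1 FPKM, summed to 53.5 to 60.05 FPKM in wild type and 55.5 to 67.6 FPKM in db/db. In db/db 1 the sum was highest, as was that of all genes (311179 FPKM). Cldn5 stood at 15.6 FPKM in db/db 1, against 3.83 to 7.37 FPKM in the other libraries. Of the 12 markers, 6 had their highest value in db/db 1 (Cldn5, Ly6c1, Plvap, Emcn, Esam and Egfl7). The lowest value lay there for 3 (Kdr, Flt1 and Cdh5), as it did for Col4a1. The part of these markers in the type IV values was not tested. The ratio of Col4a2 to Col4a1 stayed between 1.08 and 1.26 in the 9 libraries.

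Col4a3 and Col4a4, which join Col4a5 in the trimer of the kidney filter and are mutated in Alport syndrome, start 71 bases apart on chromosome 1. The stretch between the starts is shown since both genes had higher values in db/db. It is chr1:82586850-82586920, plus strand, GRCm38.p6, read from the RefSeq promoter window of Col4a4, 1 of 35 collagen genes in that table: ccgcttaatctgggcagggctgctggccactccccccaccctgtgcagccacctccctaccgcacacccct. Its GC content was 69.0%, against a median of 54.9% in stretches of this length before 32851 gene starts. The Sp1-type motif GGGCGG was not found in it on either strand, and 20.7% of those stretches hold it.

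Col4a3 had 1.47, 1.29, 1.92, 1.38 and 1.26 FPKM in wild type 1 to 5, and 1.94, 2.14, 1.91 and 2.999 FPKM in db/db 1, 3, 4 and 5. The db/db libraries were high, and wild type 3 overlapped them. The log2 change was 0.39 (SE 0.12, limma adjusted p = 0.12), and without db/db 1 it was 0.44 and passed (adjusted p = 0.0494; 0.0707 once GC was also corrected). Col4a4 had 0.998, 0.861, 0.994, 0.920 and 0.773 FPKM in wild type 1 to 5, and 1.12, 1.31, 1.16 and 1.23 FPKM in db/db 1, 3, 4 and 5, with no overlap. Its log2 change was 0.21 (SE 0.07, limma adjusted p = 0.154). In limma-voom without db/db 1 both were called higher (0.66 and 0.44, adjusted p = 0.0232 and 0.0221), as were 3.87% of all genes. Lens markers, of which 8 of 13 reached 1 FPKM, summed to 46.9, 8.58, 3.11, 70.9 and 136 FPKM in wild type 1 to 5. In db/db 1, 3, 4 and 5 they summed to 139, 28.7, 3.30 and 275 FPKM. Within wild type, Col4a3 was highest in wild type 3, where the lens sum was lowest. It was lowest in wild type 5, where that sum was highest. The part of these markers in the Col4a3 values was not tested.

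The X-linked pair, Col4a5 and Col4a6, start 1308 bases apart and were not equal in level. Col4a5 had 3.95 ± 0.149 FPKM in wild type (SD, n = 5) against 3.53 ± 0.799 FPKM in db/db (SD, n = 4), and the log2 change of -0.15 (limma adjusted p = 0.506) became -0.0074 without db/db 1, which stood at 2.34 FPKM. Col4a6 lay below the filter at 0.628 to 1.21 FPKM, and the ratio of Col4a6 to Col4a5 was 0.164 to 0.308.

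Of the fibrillar chains of types II and XI, none passed. Col2a1 had 9.45 ± 0.651 FPKM in wild type (SD, n = 5) against 10.4 ± 0.291 FPKM in db/db (SD, n = 4), a log2 change of 0.12 (limma adjusted p = 0.307; -0.03 with the GC correction). Col11a2 had 8.88 ± 0.658 FPKM in wild type (SD, n = 5) against 7.47 ± 1.58 FPKM in db/db (SD, n = 4), with -0.24 (adjusted p = 0.307). Its partner Col11a1, just under the filter at a mean of 0.964 FPKM, had 1.03, 1.21, 0.719, 1.41 and 1.23 FPKM in wild type 1 to 5, and 0.844, 0.734, 0.736 and 0.757 FPKM in db/db 1, 3, 4 and 5. Only wild type 3 was below the db/db libraries, and the ratio of means was 0.685 (limma-voom log2 change -0.51, adjusted p = 0.196). The gene just above the filter was Col4a4, at 1.04 FPKM.

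The interstitial chain Col1a1 was low but higher in each db/db library. It had 0.427, 0.461, 0.665, 0.528 and 0.538 FPKM in wild type 1 to 5, and 0.951, 0.808, 1.07 and 0.899 FPKM in db/db 1, 3, 4 and 5, a ratio of means of 1.78. In limma without a filter it did not pass (0.34, adjusted p = 0.130), and in limma-voom on recovered reads it did (0.84, adjusted p = 0.0474; 0.00999 without db/db 1), where 0.159% of all genes were called higher with all libraries and 3.87% without db/db 1. Its partner Col1a2 did not follow, at 0.660 ± 0.239 FPKM in wild type (SD, n = 5) against 0.717 ± 0.0637 FPKM in db/db (SD, n = 4). Col5a3, a minor chain that associates with collagen V, also had separate groups, at 0.330 ± 0.0701 FPKM in wild type (SD, n = 5) against 0.559 ± 0.0474 FPKM in db/db (SD, n = 4), and passed in limma-voom without db/db 1 only (adjusted p = 0.0177; 0.0668 with all libraries). Col5a1 (log2 change 0.13), Col5a2 (0.03), Col24a1 (-0.18) and Col27a1 (0.15) did not pass, with adjusted p from 0.301 to 0.946 in limma. Col5a1 ranged over 2.17 to 2.68 FPKM in wild type and 2.31 to 3.38 FPKM in db/db, and Col27a1 over 2.84 to 3.35 FPKM in wild type and 3.09 to 4.06 FPKM in db/db. The ranges were 0.62 to 1.95 FPKM in wild type and 0.56 to 1.43 FPKM in db/db for Col5a2. They were 1.03 to 1.31 FPKM in wild type and 0.76 to 1.19 FPKM in db/db for Col24a1, so each of these genes had overlapping groups. Without db/db 1 Col27a1 passed in limma-voom (adjusted p = 0.0407). The skin and vessel chain Col3a1 had 0.0689 ± 0.0276 FPKM in wild type (SD, n = 5) against 0.0943 ± 0.0339 FPKM in db/db (SD, n = 4).

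Collagen VI forms beaded filaments from unlike chains. Col6a1 had 39.3, 34.7, 34.4, 36.7 and 29.1 FPKM in wild type 1 to 5, and 31.4, 41.9, 41.4 and 44.1 FPKM in db/db 1, 3, 4 and 5. Within db/db only db/db 1 fell within the wild-type range, and the log2 change was 0.18 (limma adjusted p = 0.414; 0.28 and 0.0575 without db/db 1). Col6a2 had separate groups, at 2.46 ± 0.207 FPKM in wild type (SD, n = 5) against 2.94 ± 0.233 FPKM in db/db (SD, n = 4), a log2 change of 0.19 (adjusted p = 0.196; 0.22 and 0.0725 without db/db 1). In limma-voom without db/db 1 both were called higher (adjusted p = 0.0409 and 0.0473). The FPKM of Col6a1 was 11.6 to 16.1 times that of Col6a2, while Col6a3, the long chain of the classical trimer, was at 0.0602 to 0.197 FPKM. The ratio of Col6a1 to Col6a2 also rests on their annotated exon lengths. These were 4380 bases for Col6a1 and 8326 for Col6a2, with 1025 and 1034 coding codons. Of the chains related to Col6a3, Col6a4 had 1.87 ± 0.229 FPKM (SD, n = 5) and 1.57 ± 0.502 FPKM (SD, n = 4; log2 change -0.18), Col6a6 stood at 0.461 to 1.16 FPKM and Col6a5 at 0.0862 to 0.153 FPKM.

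The remaining classes held no called gene with all libraries. Col7a1, which forms the anchoring fibrils under epithelia, had 6.11 ± 0.365 FPKM in wild type (SD, n = 5) against 6.27 ± 0.629 FPKM in db/db (SD, n = 4), and the fold's 95% interval was 0.911 to 1.14. Col8a1 and Col8a2, the chains of the sheet under the corneal endothelium, had log2 changes of -0.03 and 0.24 (limma adjusted p = 0.925 and 0.429). Col8a1 ranged over 1.37 to 1.97 FPKM in wild type and 1.14 to 2.41 FPKM in db/db, and Col8a2 over 1.81 to 3.36 FPKM in wild type and 2.16 to 4.02 FPKM in db/db. Col10a1, the collagen of growth-plate cartilage, was listed at 0 to 0.0873 FPKM, or 0 to 10 reads, too few to read its separate groups. The multiplexins Col15a1 and Col18a1, the source of endostatin, had -0.11 and 0.12 (adjusted p = 0.525 and 0.759). Col15a1 ranged over 1.02 to 1.32 FPKM in wild type and 0.73 to 1.30 FPKM in db/db. Col26a1 and Col28a1 lay at 0.259 to 0.569 FPKM and 0.0545 to 0.211 FPKM.

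Several members differed widely between wild-type libraries. Col18a1 had 8.64, 4.95, 5.31, 10.1 and 6.495 FPKM in wild type 1 to 5, and 7.71, 6.79, 6.45 and 9.42 FPKM in db/db 1, 3, 4 and 5. In wild type it was highest in libraries 1 and 4, as were Col9a1, Col9a2, Col9a3, Col8a1, Col8a2, Col1a2 and Col4a6. The same held for Col6a1, Col23a1, Col2a1, Col6a4 and Col22a1. Of 12 markers of fibroblasts and sclera, 3 had their highest wild-type values in these libraries (Fbln1, Fmod and Thbs4) and 4 were lowest in wild type 4 (Lum, Dpt, Mfap5 and Foxc1). In this list 4 reached 1 FPKM and Twist2 stayed under 0.1 FPKM throughout. The sum of the list was 27.6, 11.5, 13.97, 35.1 and 19.4 FPKM in wild type 1 to 5, and 23.9, 15.3, 20.53 and 32.9 FPKM in db/db 1, 3, 4 and 5. Most of this sum came from Fbln1 and Fmod. Other lists held more markers with their highest wild-type values in libraries 1 and 4. These were 6 of 13 for pigment epithelium and choroid, 4 of 8 for microglia and 4 of 10 for Muller glia. There were also 4 of 11 for ciliary body and cornea, 4 of 12 for endothelium and 4 of 12 for pericytes and smooth muscle. The lists for lens, rods and astrocytes held 0, that for skeletal muscle 1 of 7 and that for ganglion cells 2 of 8. The part of these markers in the collagen values was not tested.

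The libraries held 36.6 to 47.9 M reads as recovered from the FPKM values, and a tested collagen gene had at least 212 reads in each. The rod genes summed to 11026 to 12971 FPKM over the 9 libraries. Skeletal muscle markers, of which 7 of 7 reached a mean of 1 FPKM with db/db 1 and 1 without it, summed to 2.23 to 2.83 FPKM in wild type and to 157, 4.26, 16.7 and 4.08 FPKM in db/db 1, 3, 4 and 5. Each db/db sum was above every wild-type sum, and the part of this in the collagen values was not tested. Pigment epithelium and choroid markers, 10 of 13 above 1 FPKM, summed to 449 FPKM in db/db 1, 96.8 FPKM in db/db 4 and 132 to 220 FPKM elsewhere. In db/db 1 the lowest of the 9 values was found for 8 of the 27 tested collagen genes and the highest for 4, and in db/db 4 the lowest for 2 and the highest for 8. The 44 collagen genes had a median transcript GC content of 55.1% and a median exon length of 7543 bases, against 49.8% and 3878 bases in all tested genes.

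The genes that make, export, link, cut and bind collagen were read from the same comparison, and none of 61 tested of 88 measured passed. At an unadjusted p under 0.05 there were 14, or 23.0% against 19.3% of all tested genes, and limma-voom with all libraries also called 0. Their median log2 change was 0.01, against 0.0035 for all tested genes. Without db/db 1, 7 were higher and 0 lower, where the background was 4.72% and 5.84%. These were Plod3, P3h4, Colgalt2, Furin, Mmp14, Mmp15 and Mmp2. Once GC was also corrected, 5 were higher and 0 lower, where the background was 2.56% and 2.33%. Those were Colgalt2, Furin, Mmp14, Tmem38b and Sec23a.

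Among 19 tested genes of procollagen modification and folding, Plod3, which hydroxylates and glycosylates lysines, had 6.94, 6.29, 6.31, 6.64 and 6.41 FPKM in wild type 1 to 5, and 7.78, 7.70, 7.56 and 8.48 FPKM in db/db 1, 3, 4 and 5. The groups were apart, and the log2 change was 0.24 (limma adjusted p = 0.0735; 0.0259 without db/db 1, 0.0559 once GC was also corrected). P3h4, a partner of the lysyl hydroxylase complex, had 0.34 (adjusted p = 0.0988), with 5.91 FPKM in db/db 1 and 4.12 to 4.48 FPKM in the other db/db libraries. Without db/db 1 its log2 change was 0.24 (limma adjusted p = 0.0282, and 0.111 once GC was also corrected). Among 11 tested genes of breakdown, Mmp14, a membrane-bound collagenase, had 1.91, 1.99, 1.61, 1.88 and 1.93 FPKM in wild type 1 to 5, and 2.71, 2.63, 2.45 and 2.63 FPKM in db/db 1, 3, 4 and 5. Every db/db value was above wild type, and the log2 change was 0.33 (adjusted p = 0.0571; 0.0212 without db/db 1, 0.0455 once GC was also corrected). Mmp2, the gelatinase that Mmp14 activates, had 0.19 (limma adjusted p = 0.12, with 0.0424 without db/db 1 and 0.149 once GC was also corrected).

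Among 13 tested genes of crosslinking and fibril partners, Sparc, a collagen-binding glycoprotein gene, had 0.30 and Loxl1, a lysyl oxidase gene, 0.31 (limma adjusted p = 0.180 and 0.188). Among 11 of export and propeptide processing, Mia3, which loads procollagen into transport carriers, had -0.14 and the procollagen protease gene Bmp1 0.11 (adjusted p = 0.304 and 0.372). Among 7 tested receptor genes, the collagen receptor kinase Ddr1 had 18.9 ± 0.585 FPKM in wild type (SD, n = 5) against 22.5 ± 2.13 FPKM in db/db (SD, n = 4), with separate groups and a log2 change of 0.23 (limma adjusted p = 0.12). Cd47 had -0.18 (adjusted p = 0.186).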

How the data were processed

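The authors deposited 1 table of FPKM values for 35397 genes and 9 retina libraries. Libraries were made with a SMARTER mRNA kit from total RNA purified on RNeasy columns, per the labels' protocols. Per the submitters' processing notes the genome was mm10. Aligner, counter, annotation and counting strand: not given in the sources used here. Columns named Control or DR with a number were taken as the sample of that genotype and number, an inference from the names. GENCODE M21 gave symbols for 34499 identifiers, and positions.

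Values were tested as log2(FPKM + 1), which understates changes of low genes, keeping genes whose mean reached 1 FPKM. limma 3.58.1 (R 4.3.3; lmFit, eBayes with trend) fitted db/db against wild type and held no covariate. Benjamini-Hochberg adjustment ran over every gene of a fit (threshold 0.05). Code for the main limma fit was tested on simulated data with independent noise and no shift of a whole library. The GC correction, the recovery of reads, limma-voom and the replicate block were not part of that test. Reads were recovered as FPKM times union exon length times a constant per library, with 99.0% to 99.2% of low values whole within 0.1 read; 62.3% to 66.2% of them were even, so a read need not be a separate fragment. limma-voom on these reads (mean of at least 10), 43 collagen genes passing, was chosen after seeing the data, as were the fits without db/db 1 in it, without a filter and db/db 1, and without db/db 1 and db/db 4 together. GC correction removed each library's median deviation in 20 bins of transcript GC content, known for 99.3% of tested genes. Glycine triplets were counted in runs of at least 6.

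All members at 1 FPKM or more were named with values, the rest by level, and of each list of other collagen pathway genes any called gene or, failing that, the 2 lowest p-values. Pathway genes called in limma without db/db 1, with or without the GC correction, were also named. The members and lists were chosen with earlier results of these data known. The replicate numbers are not stated to pair the samples. Deviations from group means correlated by 0.04, 0.05, -0.18 and 0.13 for numbers 1, 3, 4 and 5, which cannot show whether they do. Plots used Python 3.11.15 and matplotlib 3.10.9.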

Additional observations from a re-analysis of the deposited data

Results flagged for a closer look

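Over 88 groups of values (44 collagen genes in wild type and in db/db) 6 values lay far from the rest of their group by Dixon's ratio of gap to range, past its 95% critical value. Chance flags about 1 in 20 groups. Col17a1 at 9.95 FPKM in db/db 4 was followed by 2.02 FPKM in db/db 3. Col9a1 at 17.0 FPKM in wild type 4 was followed by 13.1 FPKM in wild type 1. In db/db 1, Col4a5 at 2.34 FPKM and Col25a1 at 0.612 FPKM lay below the next values of 3.84 and 0.937 FPKM. Col12a1 at 1.07 FPKM in wild type 2 lay below the next value of 1.24 FPKM. Col5a3 at 0.451 FPKM in wild type 1 lay above the next value of 0.322 FPKM.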

How the results depend on the processing

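Of 27 tested collagen genes, 15 kept their direction in all of their alternatives and 12 did not. A gene had 24 alternatives if it passed the filter at 5 FPKM and 23 if not. Of 633 values, 577 kept direction and call, 36 reversed, 9 newly passed and 11 no longer passed. All 11 were Col20a1, whose values stand with it in the results. With all libraries, 34 genes were higher and 39 lower. The counts were 7 and 2 with no filter (0 collagen genes lower), 17 and 13 with the filter at 5 FPKM, 21 and 15 with equal sums (0 collagen genes lower) and 5 and 1 with the GC correction (0 collagen genes lower). With GC corrected and db/db 1 left out they were 374 and 340 (pathway genes 5 higher), and without db/db 1 and db/db 4 289 and 254 (pathway genes 3 higher). With no filter and without db/db 1 they were 245 and 190 (2 collagen genes lower, 2 pathway genes higher). Limma-voom on recovered reads called 1 collagen gene higher and 2 lower, and without db/db 1 it called 779 and 948 genes, among them 8 collagen genes higher and 3 lower and 6 pathway genes higher. Quantile normalization called 1 pathway gene higher. Leaving out 1 library at a time gave 3 to 688 genes higher and 1 to 852 lower, 0 to 2 collagen genes higher and 0 to 1 lower, and 0 to 7 pathway genes higher, with the highest counts without db/db 1. The replicate block called 2 genes higher and 0 lower, with 0 collagen genes lower. Whether the numbers pair the samples is not stated, and wild type 2, which has no partner, carries no weight in the block fit.

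Reversals were of changes that did not pass, and the cause was not tested. The GC correction gave log2 changes of -0.025 for Col2a1, -0.11 for Col4a2, -0.11 for Col4a1, -0.033 for Col18a1, -0.12 for Col7a1, -0.0094 for Col9a2, -0.017 for Col5a1 and 0.0201 for Col8a1. Without db/db 1 as well it gave -0.0042 for Col18a1, -0.079 for Col9a3, -0.13 for Col7a1 and -0.078 for Col9a2. Equal sums gave -0.013 for Col4a1, and quantile normalization 0.0071 for Col8a1. Col7a1 was at -0.0169 in limma-voom without db/db 1 and at -0.0171 with no filter and without db/db 1. Without db/db 1 and db/db 4, Col7a1 was at -0.051, Col23a1 at 0.0496, Col4a5 at 0.0054 and Col8a1 at 0.071. Leaving out 1 library gave -0.068 to 0.0103 for Col23a1, -0.034 to 0.13 for Col4a2, -0.075 to 0.14 for Col4a1, -0.0171 to 0.085 for Col7a1, -0.15 to 0.074 for Col8a1 and -0.058 to 0.17 for Col5a2.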
